A study of Mus musculus with 12 samples.

Results

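RNA abundance is described here for mouse cells labelled as primary aortic smooth muscle cells and kept in regular growth medium, with no other treatment named. The members were chosen by that medium: 4 libraries of the 12 in the study, with all genes, as CPM (a gene's count per 1000000 counts of its library). The other 8 libraries, 4 each in conditioned medium of naive macrophages and of macrophages given interferon gamma and lipopolysaccharide, are not described. The labels number the 4 libraries as biological replicates. They do not say whether these came from separate animals or cultures, nor give strain, age, sex, passage or part of the aorta, so the spread below is that between these libraries and part of it may be technical. The labels describe a 48 hour culture in 0.3% serum before conditioned medium was added and do not say whether the cells in regular medium went through it.

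Smooth muscle cells form the middle layer of the aorta, where actin and myosin filaments let them contract and secreted collagens, elastic fibers and proteoglycans give the wall its strength. In culture they are known to lose contractile proteins and to take up migration, division and matrix synthesis, a shift known as phenotypic modulation. Serum response factor and its partner myocardin drive the contractile genes through a DNA element, the CArG box, and smooth muscle of different aortic segments keeps a record of its position in its Hox genes.

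Total counts ranged from 28097496 in replicate 3 to 61493375 in replicate 2 (46759268 ± 14222466, mean ± SD, n = 4, as for all values below). A gene is said to be detected where it reached 1 CPM in all 4 libraries, which 12481 of 55822 identifiers did. Of the nuclear protein-coding genes, 11522 of 21649 (53.2%) were detected. A count of 0 in all 4 libraries allows a level of up to 0.0160 CPM at 3 counts over the group, which covers counting error only. Levels of different genes are compared as TPM, the count per exon length scaled to 1000000 per library. Replicate 4 stood apart from the others. Across 14716 genes its correlation with them was 0.9933 to 0.9940 on the log2 CPM scale, against 0.9955 to 0.9973 among the others, and the first principal component, with 54.2% of the variance, separated it. For results that rest on it, values per library are mostly given, and for some of them the mean without it.

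Contractile smooth muscle markers were unevenly present. Of 20, 12 (60%) were detected, against 53.2% of all nuclear coding genes. Only 5 reached a mean of 10 CPM, among them Cav1, Acta2, Smtn and Tagln. Acta2, smooth muscle α-actin (chromosome 19, 34241090 to 34255590, GRCm38), stood at 348, 305, 308 and 263 CPM in replicates 1 to 4 (306 ± 34.5 CPM). Tagln, the actin-binding protein SM22α (chromosome 9, 45929619 to 45936058), stood at 53.3, 36.9, 24.0 and 24.3 CPM (34.6 ± 13.9 CPM). Both were highest in replicate 1, and Tagln had the largest spread of the 5, with a coefficient of variation of 35.7% (edgeR). Smtn, smoothelin, which marks differentiated smooth muscle, stood at 44.7, 41.0, 52.2 and 61.7 CPM, highest in replicate 4.

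The markers that define the contractile state most strictly were not detected by the rule above. Myh11, the smooth muscle myosin heavy chain (chromosome 16, 14194535 to 14291372), was at 0.587, 0.813, 1.03 and 0.695 CPM, 141 counts in all libraries together. The pooled level was 0.754 CPM with an exact Poisson 95% interval of 0.635 to 0.889 CPM. That interval covers counting error only and not the spread between libraries, of which the highest, at 1.03 CPM, lay above the threshold. Cnn1, calponin 1 of the contractile filament (chromosome 9, 22099216 to 22109630), was at 0.284, 0.228, 0.356 and 0.336 CPM and 54 counts in all. Des, the muscle intermediate filament desmin, had 90 counts, Mylk, the kinase that starts myosin contraction, 75, and Actg2, enteric smooth muscle actin, 5. No count was found for Kcnmb1, a potassium channel subunit of smooth muscle. Lmod1, leiomodin 1, stood at 5.91, 4.94, 4.48 and 4.89 CPM, and Myocd, myocardin itself, at 6.72, 6.11, 7.94 and 6.57 CPM, with all 4 libraries close together in both. The label is therefore met by part of its marker list: Acta2, Tagln, Smtn and Myocd were present, while Myh11, Cnn1 and Des were not detected. Fewer contractile cells and less contractile RNA per cell cannot be told apart in these bulk libraries.

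Start-site windows of 3 of these genes are shown because the genes span the range from high to nearly absent. Each runs from 250 bases before the start to 50 after it, 5′ to 3′ on the gene's strand, from RefSeq on GRCm38.p6. Capitals mark matches to the CArG box, searched on both strands with at most 1 departure from its letters. The windows lie at chr19:34255324-34255623 on the minus strand for Acta2 (488 ± 63.0 TPM), chr1:135324563-135324862 on the plus strand for Lmod1 (4.47 ± 0.538 TPM) and chr9:22099003-22099302 on the plus strand for Cnn1 (0.384 ± 0.0727 TPM).
Acta2: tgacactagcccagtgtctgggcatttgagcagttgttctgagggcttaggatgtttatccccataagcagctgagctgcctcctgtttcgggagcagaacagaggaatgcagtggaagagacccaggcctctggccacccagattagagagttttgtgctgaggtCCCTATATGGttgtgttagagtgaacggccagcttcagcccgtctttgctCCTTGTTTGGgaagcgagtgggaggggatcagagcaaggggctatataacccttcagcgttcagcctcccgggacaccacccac
Lmod1: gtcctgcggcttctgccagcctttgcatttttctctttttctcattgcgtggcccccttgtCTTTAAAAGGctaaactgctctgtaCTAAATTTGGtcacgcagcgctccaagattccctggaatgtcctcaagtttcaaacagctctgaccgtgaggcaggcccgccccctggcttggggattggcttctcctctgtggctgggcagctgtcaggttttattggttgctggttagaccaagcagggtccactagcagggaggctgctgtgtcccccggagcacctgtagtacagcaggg
Cnn1: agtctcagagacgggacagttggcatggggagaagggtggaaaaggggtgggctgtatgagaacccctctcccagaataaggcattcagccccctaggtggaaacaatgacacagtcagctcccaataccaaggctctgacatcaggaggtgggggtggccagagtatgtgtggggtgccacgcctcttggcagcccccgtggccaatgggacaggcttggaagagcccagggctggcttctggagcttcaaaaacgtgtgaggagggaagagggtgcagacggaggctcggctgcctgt
The Acta2 window holds matches that begin 84 and 34 bases before the start, the Lmod1 window 189 and 164 bases before it, and the Cnn1 window none. Of 15 contractile genes with a window, 5 had such a match (Acta2, Lmod1, Casq2, Hspb6 and Ldb3). Tagln and Myh11 had no window and were not searched. Counted by window, 6 of 18 contractile windows had a match, overlapping windows of Ldb3 among them. Among all 32851 windows of this length, 21.1% did. Smtn at 39.7 TPM and Cav1 at 1376 TPM had none, and Casq2, the calcium-storing protein calsequestrin 2, had a match at 0.130 TPM; a match was thus found at high and at low levels. A match describes letters only, and whether any factor was bound was not measured.

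**Figure D1:**
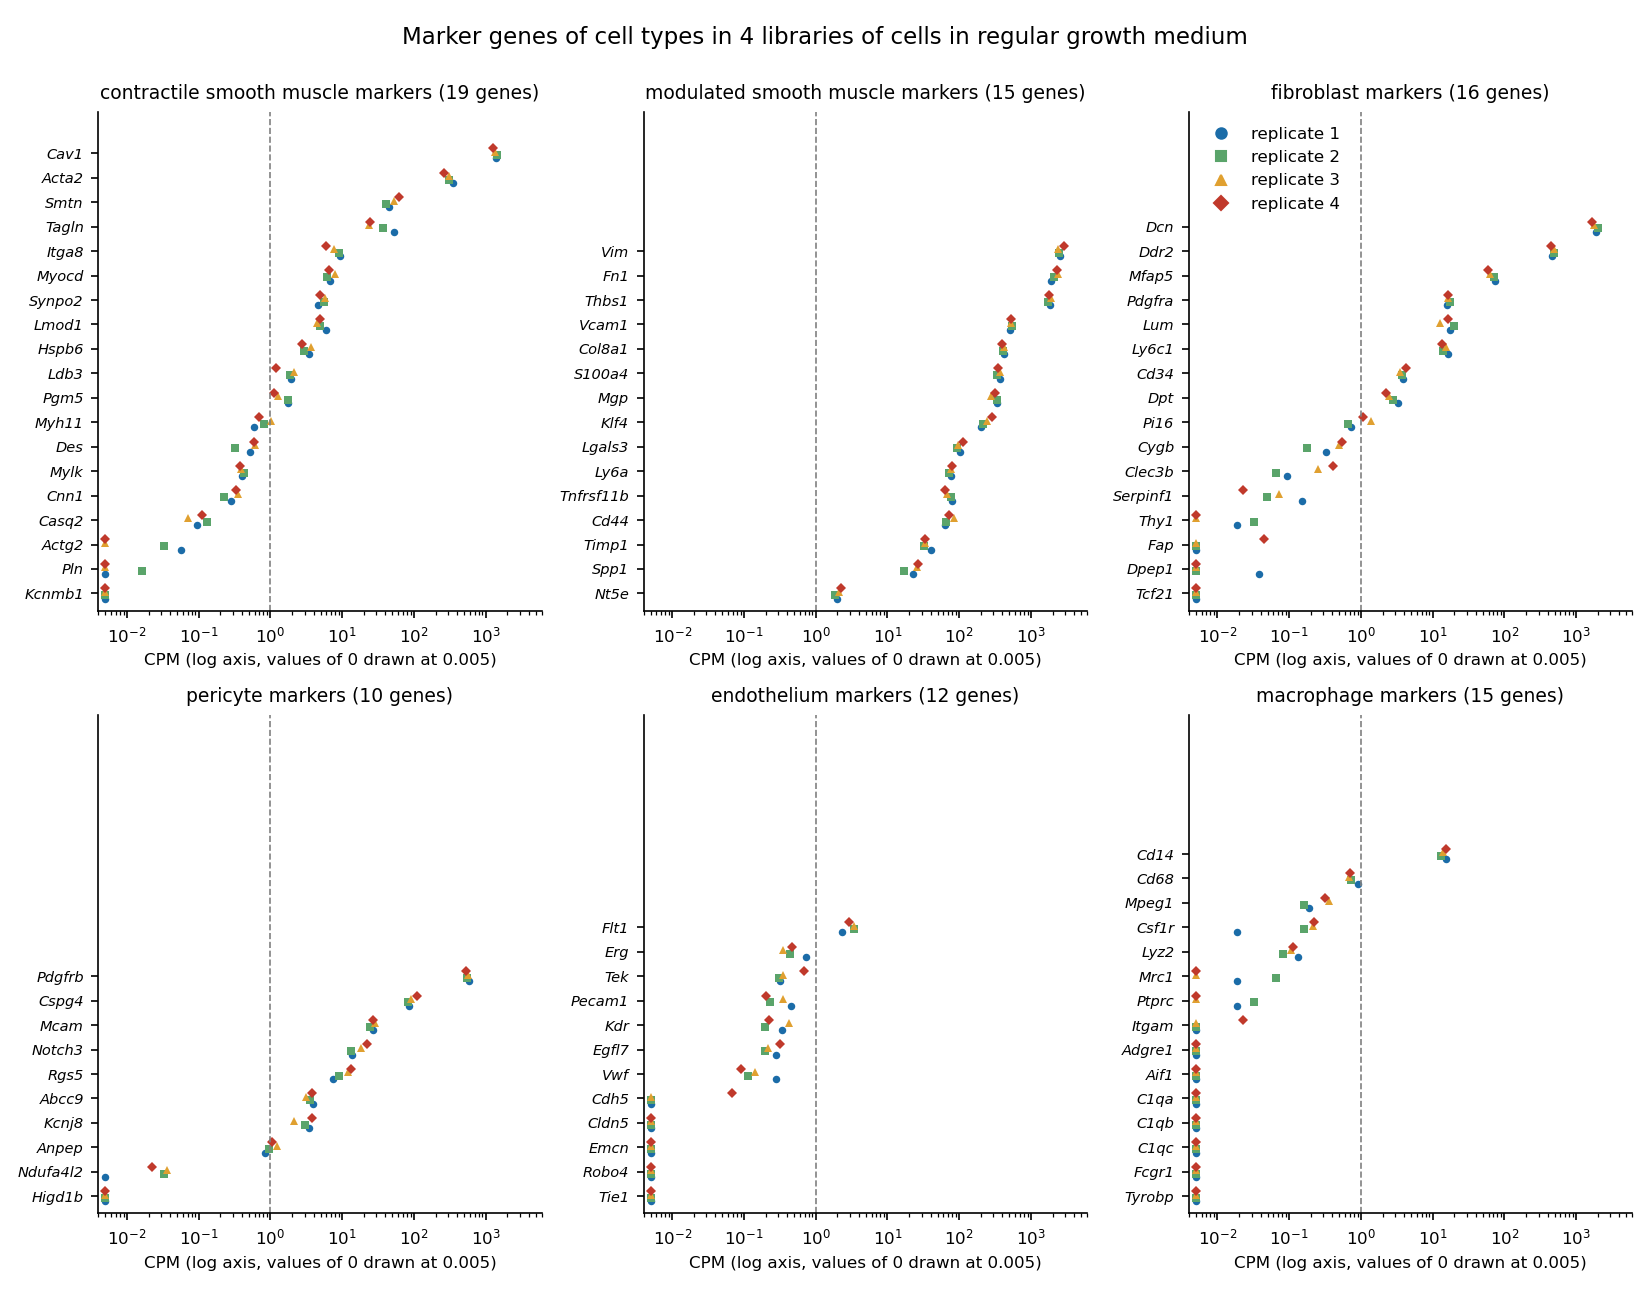
CPM (log axis) of markers of 6 cell types in each of the 4 libraries, with the detection threshold of 1 CPM as a dashed line and values of 0 drawn at 0.005. All 15 markers of modulated smooth muscle lie to the right of the line, against 8 of 16 fibroblast, 7 of 10 pericyte, 1 of 12 endothelial and 1 of 15 macrophage markers, and the contractile markers drawn lie on both sides of it.

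Genes known from modulated smooth muscle were all detected, 15 of 15, with a median of 209 TPM against 4.69 TPM for the detected contractile markers and 23.3 TPM for all detected nuclear coding genes. S100a4, a calcium-binding protein of motile cells, led them at 375, 336, 365 and 351 CPM (2135 ± 125 TPM). Vim, vimentin, the intermediate filament of mesenchymal cells, stood at 2549, 2432, 2390.4 and 2931 CPM (1894 ± 128 TPM). It was highest in replicate 4. Thbs1, thrombospondin 1, stood at 1809 ± 95.9 CPM, Fn1, fibronectin, at 2183 ± 229 CPM, and Mgp, matrix Gla protein, which restrains calcification, at 318 ± 27.5 CPM. Klf4, a transcription factor that represses contractile genes, reached 202, 217, 246 and 283 CPM. Its lowest value was in replicate 1 and its highest in replicate 4. The adhesion molecule Vcam1 stood at 529.9 ± 17 CPM, the lectin Lgals3 at 100.4 ± 8.18 CPM, the surface antigen Ly6a at 76.0 ± 3.32 CPM and osteopontin, Spp1, at 23.0 ± 4.52 CPM. Osteoprotegerin, Tnfrsf11b, stood at 71.9 ± 7.67 CPM, Cd44, the hyaluronan receptor, at 70.8 ± 9.27 CPM, Timp1 at 34.7 ± 3.65 CPM and Col8a1 at 412 ± 8.96 CPM. The lowest of the list, Nt5e, an ectonucleotidase, was at 2.04 ± 0.158 CPM. This list, like the others, was chosen with earlier results of these data known.

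Markers of neighbouring mesenchymal cells were partly present. Among 16 fibroblast markers 8 (50%) were detected, against 53.2% of all nuclear coding genes. Dcn, decorin, stood at 1886, 1991, 1778 and 1663 CPM, and Ddr2, a collagen receptor, at 476 ± 22.4 CPM. The others at 10 CPM or more were Mfap5 (66.5 ± 7.19 CPM), Pdgfra (16.6 ± 0.761 CPM), Lum (16.5 ± 3.01 CPM) and Ly6c1 (14.7 ± 1.37 CPM). Thy1 had 3 counts, Fap 2 and Tcf21, a factor of fibroblast precursors, none. Of 10 pericyte markers 7 were detected, led by Pdgfrb, the receptor for PDGF-B, at 578, 547, 565 and 526 CPM. Cspg4 stood at 92.4 ± 12.5 CPM, Mcam at 26.9 ± 1.91 CPM, Notch3 at 16.9 ± 4.32 CPM and Rgs5 at 10.5 ± 2.70 CPM, while Higd1b had no count. Dcn, Ddr2 and Pdgfrb are also expressed by smooth muscle, and Vim of the modulated list by mesenchymal cells in general. These lists and the modulated one therefore do not separate the cell types by themselves.

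Cells of other lineages left few traces. Of 12 endothelial markers only Flt1 was detected, at 3.01 ± 0.533 CPM, and the list summed to 4.71 to 5.27 CPM per library. Pecam1 had 57 counts in all, Vwf 30 and Cdh5 3. Of 15 macrophage markers only Cd14, a lipopolysaccharide co-receptor that other cells also make, was detected, at 14.4 ± 0.990 CPM. Csf1r had 27 counts, Ptprc 3 and Adgre1 none, and the macrophage list summed to 14.4 to 16.7 CPM. None of 8 lymphocyte, 7 skeletal muscle or 6 erythroid and platelet markers was detected. Single markers of other lists were: Kit of 5 mast cell markers (2.35 ± 0.0350 CPM), Tnnt2 of 7 cardiac markers (4.90 ± 0.303 CPM), and Pparg and Fabp4 of 6 adipocyte markers (6.66 and 2.20 CPM). Sox9 and Runx2, 2 of 10 bone and cartilage markers, stood at 23.2 ± 5.23 and 10.2 ± 1.55 CPM. The bone genes Sp7 and Ibsp had no count.

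A pair of lists held more detected markers, 50% in each, against 53.2% of all nuclear coding genes. Of 10 epithelial and mesothelial markers 5 were detected, and Krt19, keratin 19, stood at 138, 128, 202 and 216 CPM (321 ± 80.2 TPM). Replicates 3 and 4 were higher than replicates 1 and 2, and the list's summed level moved the same way, at 220.0, 206, 298 and 308 CPM. Upk3b stood at 50.0 ± 5.20 CPM, Cdh1, E-cadherin, at 27.2 ± 2.75 CPM, Msln, mesothelin, at 6.23 ± 0.964 CPM and Lrrn4 at 3.31 ± 0.244 CPM, whereas Epcam had no count and Krt8 had 8 counts in all. Of 8 Schwann and neural markers 4 were detected, among them S100b (41.2 ± 2.17 CPM), Ncam1 (16.4 ± 0.641 CPM) and Tubb3 (12.0 ± 1.01 CPM). Sox10, which defines Schwann cells, had 1 count. Which cells made these RNAs was not tested.

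Abundance was spread over many genes. The 50 most abundant held 19.1 ± 0.597% of the counts, 765 genes held 50% and 5406 held 90%. Genes of the mitochondrial genome held 3.41 ± 0.203%, and nuclear coding genes 88.7 ± 0.775%. By CPM, which also grows with transcript length, 2 identifiers without a gene name, ENSMUSG00000118866 and ENSMUSG00002076161, stood at 30102 and 10751 CPM. Among named genes the mitochondrial ribosomal RNA mt-Rnr2 led at 19066 ± 1377 CPM, followed by the nuclear RNA Malat1 (12125 ± 769.9 CPM), the giant scaffold gene Ahnak (10385 ± 385 CPM), the elongation factor Eef1a1 (9817 ± 432 CPM) and the mitochondrial mt-Co1 (7577 ± 479 CPM). Further down were Actb at 4289 and Hspa8 at 3602 CPM.

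Per length, Eef1a1 was the highest nuclear coding gene at 13763 ± 818 TPM, ahead of Actb, cytoplasmic β-actin (5591 ± 187 TPM), Tmsb4x, thymosin β4, which binds actin monomers (4547 ± 569 TPM), Cpe, carboxypeptidase E (4094 ± 172 TPM), and Lgals1, galectin 1 (4006 ± 445 TPM). Genes with ribosomal protein names made up 22 of the 50 highest coding genes, with Rpl10-ps3, Rps27rt and Rps12-ps3 among them. Of 83 ribosomal protein genes, counted without names of that kind, 80 were detected. Together the 83 held 8.32 ± 0.239% of the TPM. Rpl10-ps3, listed at 4976 ± 283 TPM, is named as a copy of Rpl10, and reads of such copies can be split between them. Others among the 20 highest were the translocation factor Eef2 (3569.7 ± 306 TPM), the ferritin chain Ftl1 (3148 ± 149 TPM), S100a6 (3016 ± 255 TPM), the class I light chain B2m (2973 ± 269 TPM), the chaperone Hspa8 (2928 ± 204 TPM), prothymosin Ptma (2669 ± 181 TPM) and the caveolar coat protein Cavin2 (2666 ± 246 TPM). Acta2 ranked 219 among coding genes. Counting noncoding genes, the mitochondrial mt-Rnr2 was highest at 42085 ± 2848 TPM. Among nuclear genes, Rpph1, the RNA of ribonuclease P, ranked first at 20457 ± 22089.8 TPM. This mean rests on replicate 4, as shown with the spread below. Rpph1 took 53549 TPM in replicate 4 against 8548 to 10993 TPM in the others. TPM has the same total in every library, so less was left for all other genes in replicate 4. Actb, for example, was highest there by CPM (4414 against 4058 to 4355) but not by TPM (5537 against 5353 to 5773). Means and SDs in TPM include this shift. Gm28437 and Gm28661, nuclear copies of mitochondrial genes, stood at 14464 and 12679 TPM, and their reads cannot be separated from the mitochondrial originals with certainty.

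**Figure D2:**
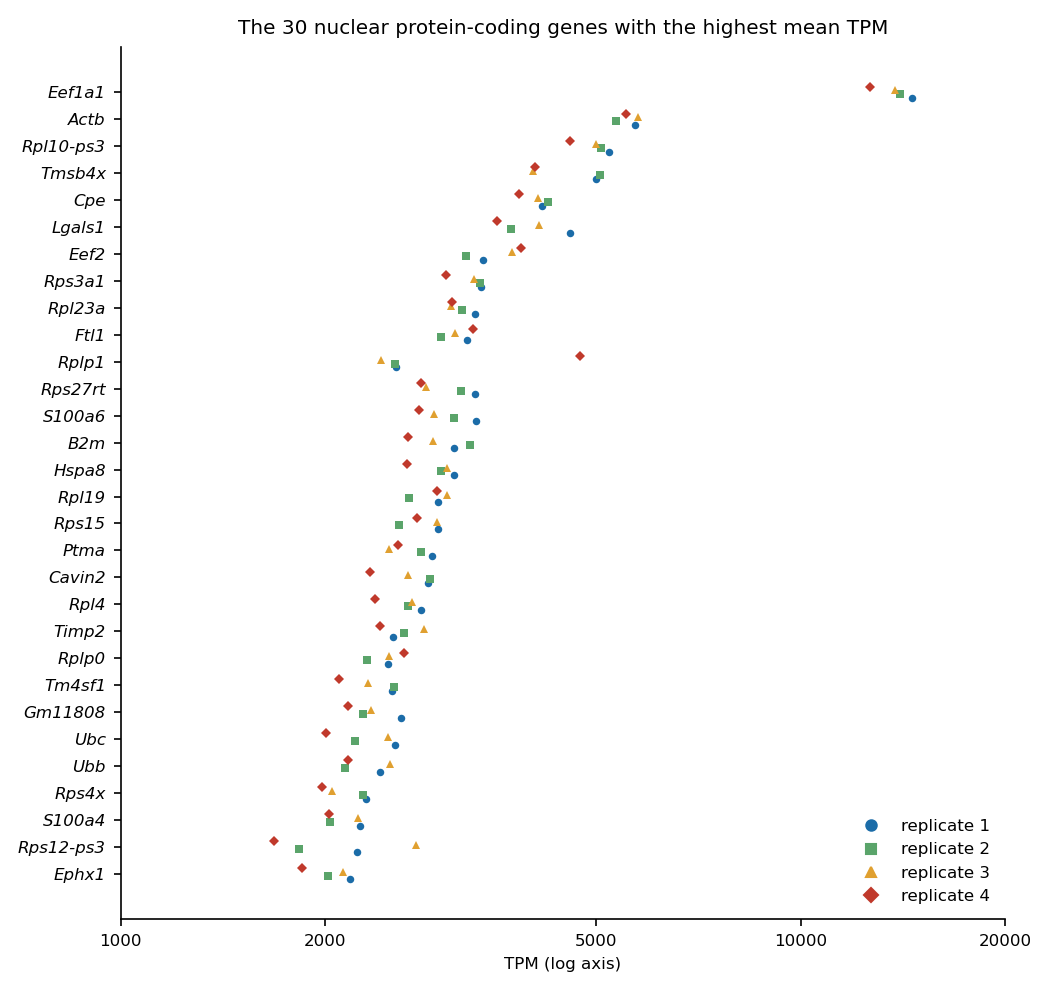
TPM (log axis) of the 30 nuclear protein-coding genes with the highest mean, 1 symbol per library. Eef1a1 lies apart at 13763 TPM on average, and Rplp1 is the gene whose replicate 4 lies farthest from the rest.

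Of 240 secreted genes in 12 lists 172 (71.7%) were detected, against 53.2% of all nuclear coding genes. The lists held 5.35 ± 0.0568% of the counts. The detected members had a median of 62.1 TPM against 23.3 TPM for all detected coding genes. The 100 highest coding genes held 15 of them, against 11 cytoskeletal genes and 1 receptor gene. Summed by list, matricellular genes led at 7144 ± 200.1 TPM, followed by protease inhibitors at 6183 ± 120.3 TPM and elastic fiber genes at 5519 ± 207 TPM. The inhibitor list counts the collagen chaperone Serpinh1, which held 16.1 ± 1.29% of its TPM. Its place above the elastic fiber list rests on that gene.

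Elastic fiber genes, 18 of 21 detected, were led by linkers and cross-linkers. Efemp1, fibulin 3, stood at 1196, 1211, 1201 and 1122 CPM (2029.7 ± 121 TPM), and held 36.8 ± 1.24% of the list's TPM. Fbln2 and Fbln5, fibulins that join elastin to its surroundings, stood at 1157 ± 62.5 and 674 ± 49.4 TPM, and Lox, which cross-links elastin and collagen, at 304 ± 25.5 TPM. Ltbp1, which stores latent TGF-β, stood at 256 ± 20.4 TPM. Elastin itself, Eln, the main protein of the aortic elastic layers, stood at 225, 225, 275 and 287 CPM (109 ± 13.0 TPM), below each of these.

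Collagens were lower per length. The fibrillar genes, 8 of 11 detected, summed to 860 ± 102 TPM. Col1a1 stood at 350.4, 376, 534 and 689.6 CPM and was the collagen with the largest spread, 31.6% (edgeR), with replicates 3 and 4 above the others. Its partner chain Col1a2 stood at 799.8, 767, 862 and 949 CPM, in the same order of libraries at the top. Col5a2 (203 ± 11.6 TPM), Col5a1 (83.7 ± 10.6 TPM) and Col3a1 (73.5 ± 5.71 TPM) followed. Basement membrane genes, 20 of 21 detected, were led by the laminin chain Lamb2 (314 ± 27.1 TPM), the linker Nid1 (249.9 ± 15.4 TPM) and the collagen chains Col4a5 (192 ± 20.0 TPM), Col4a1 (132 ± 10.5 TPM) and Col4a6 (107 ± 12.3 TPM). Of the collagen IV chains, Col4a2, the partner of Col4a1, was lower at 63.8 ± 7.78 TPM. Of 10 other collagens 8 were detected, led by the microfibril chain Col6a1 (217 ± 12.3 TPM), Col14a1 (216 ± 13.5 TPM), Col8a1 (184 ± 8.63 TPM), Col6a2 (47.3 ± 5.91 TPM) and Col16a1 (13.2 ± 1.13 TPM).

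Small proteoglycans, 9 of 14 detected, were among the highest secreted genes. Bgn, biglycan, stood at 2551, 2699, 3108 and 2628 CPM (1575 ± 172 TPM), Ogn, osteoglycin, at 1221, 1332, 996 and 1029 CPM (1559 ± 232 TPM) and Dcn at 1096 ± 104 TPM. These 3 held 34.8%, 34.3% and 24.1% of the list's TPM. Prelp and Omd followed at 160.1 and 104 TPM. Vcan, the large proteoglycan versican, was low at 15.4 CPM, and Acan, aggrecan of cartilage, was not detected. Matricellular genes, 17 of 23 detected, were led by Ccn2, connective tissue growth factor (1561 ± 93.0 TPM), Sparc, osteonectin (1462 ± 108 TPM), Thbs1 (1041 ± 72.1 TPM), Mgp (935 ± 79.5 TPM) and Fn1 (652 ± 68.3 TPM). Postn, periostin, had 2 counts in all.

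Matrix turnover genes were high on both sides. Of 26 proteases 21 were detected, led by the lysosomal Ctsd (1510.1 ± 106 TPM), the metalloproteinase Mmp3 (603, 613, 559 and 571 CPM, 1138 ± 62.5 TPM), Ctsb (519 ± 25.7 TPM), Ctsl (398 ± 33.8 TPM) and the gelatinase Mmp2 (283 ± 22.9 TPM). Mmp9, the other gelatinase, had no count. Of 17 inhibitors 11 were detected. Timp2, an inhibitor of metalloproteinases, stood at 2795, 2876, 3047 and 2794 CPM (2583 ± 163 TPM) and held 41.8 ± 2.00% of its list. Timp3, the matrix-bound member, stood at 2843, 3018, 2932 and 2753 CPM (1239 ± 77.6 TPM). Serpinh1, the collagen chaperone, stood at 995 ± 79.7 TPM, Cst3, cystatin C, at 803 ± 123 TPM and Serpinb6a at 255 ± 14.6 TPM.

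Of 50 growth factors and their antagonists 36 were detected. Vegfd, a growth factor for lymphatic and blood vessels, led at 442, 507, 521 and 469 CPM (704 ± 64.7 TPM), followed by Gas6, the ligand of Axl (574 ± 13.4 TPM), Angpt2 (351 ± 29.8 TPM), Bmp4 (251 ± 9.78 TPM) and the Wnt modulator Dkk3 (206 ± 12.0 TPM). Vegfa, the main growth factor of endothelium, was lower at 24.6 ± 2.00 TPM, and Vegfc was not detected. Of the TGF-β genes, Tgfb3 (175 ± 13.6 TPM) and Tgfb2 (61.8 ± 5.14 TPM) exceeded Tgfb1 (5.03 ± 1.47 TPM). Igfbp7 (1807 ± 89.4 TPM) led the IGF-binding proteins, 4 of 7 detected, ahead of Igfbp3 (287 ± 24.5 TPM), Igfbp2 (125 ± 12.4 TPM) and Igfbp4 (2.25 ± 0.537 TPM). Igfbp5 had 8 counts in all.

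Of 27 chemokines and cytokines 12 were detected. Cxcl12, which retains stem and immune cells, stood at 1508, 1571, 1588 and 1613 CPM (671 ± 20.5 TPM) and held most of the list's summed 1254 ± 35.0 TPM. Cxcl15, a chemokine best known from lung, stood at 138, 149, 124 and 125 CPM (221 ± 22.3 TPM). Its libraries lay close together, replicates 1 and 2 slightly higher. Mif, a macrophage migration factor, stood at 37.4, 35.4, 36.5 and 61.9 CPM, with replicate 4 above the rest. Cx3cl1 and Il18 stood at 51.3 and 8.68 CPM. Of other inflammatory genes, Ccl2 stood at 1.73 ± 0.0748 CPM, just above the detection threshold, Il6 was below it at 0.111 CPM, and Il1b, Tnf and Ccl5 had no count. Of 15 complement genes 10 were detected. They included Clu (399 ± 27.2 TPM), C1s1 (367 ± 38.9 TPM), C1ra (297 ± 26.2 TPM) and C3 (105 ± 8.14 TPM).

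**Figure D3:**
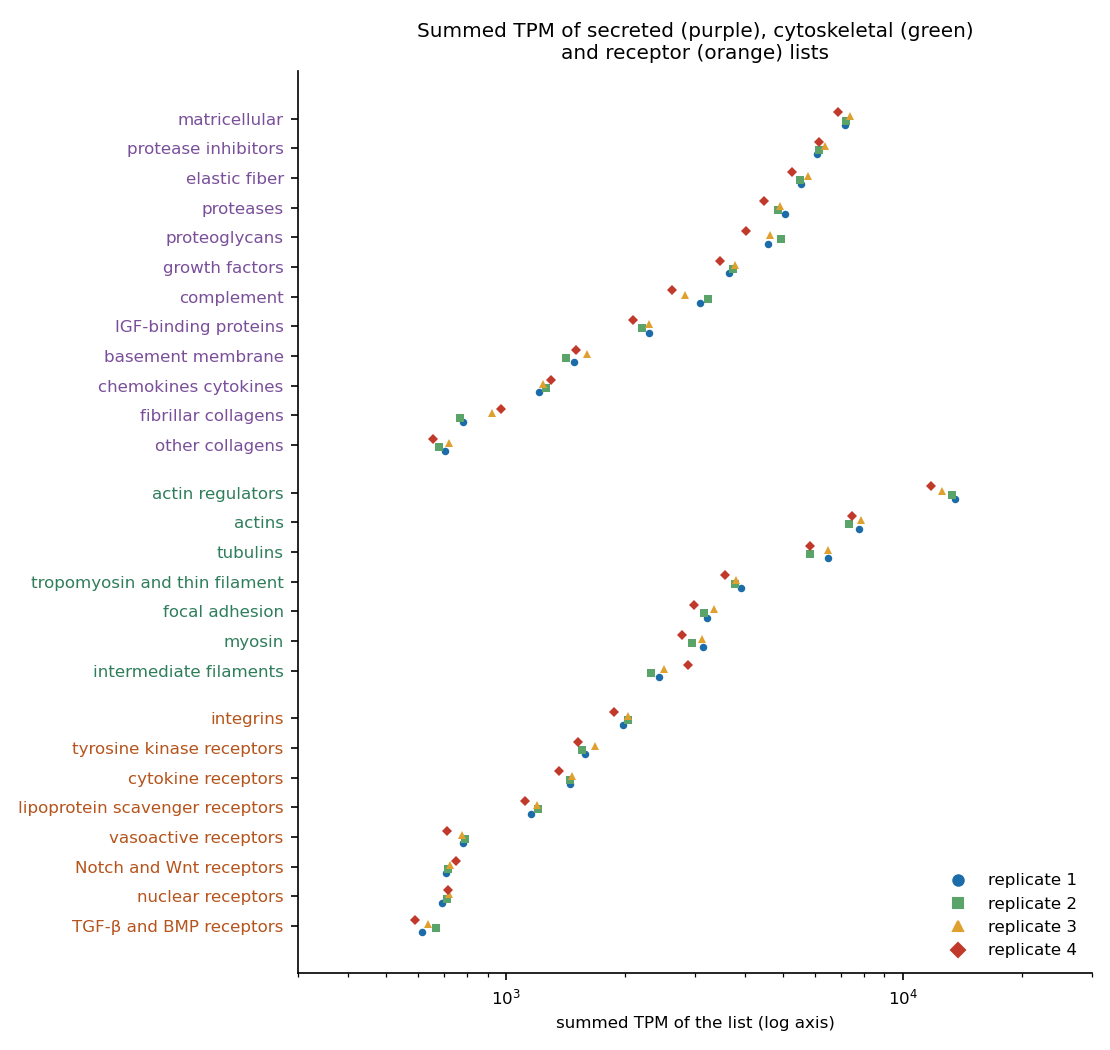
Summed TPM (log axis) of each list of secreted, cytoskeletal and receptor genes, 1 symbol per library. Actin regulators are highest at 12810 TPM on average and TGF-β and BMP receptors lowest at 626 TPM, and within a list the 4 libraries lie close together.

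Cytoskeletal genes had the highest median level of the 6 groups of lists described here. Of 107 in 7 lists 92 (86.0%) were detected, against 53.2% of all nuclear coding genes. The detected members had a median of 168 TPM, and the lists held 3.90 ± 0.0874% of the counts. Actins were almost wholly cytoplasmic: Actb held 73.6 ± 0.447% of the actin TPM, Actg1, γ-actin, 19.9 ± 0.473% and Acta2 6.42 ± 0.748%. Acta1, the skeletal form, had 9 counts and Actc1, the cardiac form, none. Actin sequences are much alike, so some reads may be shared between these genes.

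The same pattern held for partners of actin, where forms found in all cells exceeded smooth muscle forms. Cnn3 and Cnn2, the acidic and neutral calponins, stood at 881 ± 58.5 and 658 ± 30.5 TPM, against 0.384 TPM for Cnn1. Myh9, nonmuscle myosin IIA, stood at 1454, 1382, 1678 and 1724 CPM and Myh10, nonmuscle myosin IIB, at 427 ± 14.3 CPM, that is 421 ± 41.4 and 143 ± 7.67 TPM, against 0.360 TPM for Myh11. Tagln2 stood at 160.4 TPM against 60.9 TPM for Tagln. Tropomyosins Tpm4 (1043 ± 50.6 TPM) and Tpm1 (357 ± 8.03 TPM) and Cald1, caldesmon (256 ± 15.4 TPM), completed the 5 highest of 11 detected thin filament genes among 13. Myosin genes, 11 of 13 detected, were led by the light chain Myl6 (1082 ± 103 TPM), Myo1c (435 ± 36.0 TPM), Myh9, and Myl12a and Myl12b (414 ± 21.1 and 373 ± 30.4 TPM). The last pair is nearly identical in sequence.

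Of 26 actin regulators 25 were detected, with a summed 12810 ± 794 TPM, the highest of all lists among secreted, cytoskeletal and receptor genes. After Tmsb4x came Dstn, destrin, which severs filaments (1573 ± 129 TPM), Flna, filamin A, a cross-linker (845 ± 70.1 TPM), Pls3 (624 ± 55.8 TPM) and Gsn, gelsolin (561 ± 38.8 TPM). Of 16 tubulins 15 were detected, led by Tuba1a and Tuba1b (1452 ± 110.1 and 1404 ± 154 TPM), Tubb5 (1068 ± 63.0 TPM), Tubb4b (844 ± 41.3 TPM) and Tubb2a (376 ± 19 TPM). All 19 focal adhesion genes were detected, led by Csrp1 (1330.2 ± 92.2 TPM), Zyx, zyxin (269.5 ± 25.1 TPM), Vcl, vinculin (239 ± 14.7 TPM), Tln1, talin (192 ± 12.6 TPM) and Tns1 (191 ± 25.6 TPM).

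Intermediate filament genes, 8 of 14 detected, varied most between libraries among these lists. Vim held 75.0 ± 3.37% of their TPM and Krt19 12.6 ± 2.42%. Lmna, lamin A, stood at 238, 215, 244 and 369.9 CPM and Plec, plectin, which ties filaments to junctions, at 258, 249.6, 331 and 513 CPM. Replicate 4 was highest in all 4 genes, and the list summed to 4163 CPM there against 3139 to 3307 CPM in the others. Without replicate 4 its mean was 3250 CPM, and with it 3478 CPM. Lmnb1 completed the 5 highest at 37.2 ± 4.43 TPM.

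Detected receptor genes stood at about the level of all detected coding genes, with medians of 23.8 and 23.3 TPM. Of 190 in 8 lists 143 (75.3%) were detected, against 53.2% of all nuclear coding genes. The lists held 1.5 ± 0.0186% of the counts. Among 32 receptor tyrosine kinases 22 were detected. Axl, the receptor of Gas6, stood at 679.8, 647, 698 and 672 CPM (468 ± 21.2 TPM) and Pdgfrb at 354 ± 21.8 TPM, together with Ddr2 (179.5 ± 12.7 TPM), Ddr1 (113 ± 12.8 TPM) and Egfr (95.3 ± 7.09 TPM). Pdgfra, the other PDGF receptor, was far lower than Pdgfrb at 5.78 ± 0.332 TPM. Kdr, the main VEGF receptor of endothelium, was not detected.

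All 12 receptors of TGF-β and BMP were detected, led by Tgfbr2 at 552, 557, 561 and 550.5 CPM (237 ± 8.12 TPM) and Bmpr1a (205 ± 16.3 TPM). Tgfbr1, which signals together with Tgfbr2, was lower at 39.7 ± 3.63 TPM, beside Tgfbr3 at 39.9 ± 2.53 TPM and Bmpr2 at 36.6 ± 4.35 TPM. Of 13 Notch and Wnt receptors 12 were detected, led by Fzd1 (268 ± 7.77 TPM), Fzd2 (83.8 ± 14 TPM), Notch2 (66.8 ± 2.24 TPM), Fzd7 (62.9 ± 1.47 TPM) and Fzd6 (53.6 ± 4.48 TPM). Notch3, the Notch receptor typical of arterial smooth muscle, stood at 7.26 ± 1.71 TPM, below Notch2. Of 20 integrins 16 were detected. Itgb1, the common β1 chain, stood at 1189.6, 1262, 1168 and 1140.3 CPM and held 51.5 ± 1.63% of the integrin TPM, ahead of Itgb5 (570.0 ± 13.4 TPM), Itga3 (154 ± 17.8 TPM), Itgav (90.4 ± 7.09 TPM) and Itgb3 (32.1 ± 3.49 TPM).

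Of 44 receptors for vasoactive hormones 22 were detected and 6 had no count. This was the lowest share among the 8 receptor lists, near the 53.2% detected among all nuclear coding genes. F2r, the thrombin receptor PAR1, stood at 385, 373, 361 and 351 CPM (385 ± 22.4 TPM) and held 50.4 ± 1.01% of the list's TPM. The natriuretic peptide receptors Npr2 (112 ± 6.17 TPM) and Npr3 (66.2 ± 6.64 TPM), Calcrl (38.5 ± 5.26 TPM) and the nitric oxide receptor subunit Gucy1a1 (34.6 ± 2.37 TPM) followed. Agtr1a, the angiotensin receptor of vascular smooth muscle, was low at 4.58, 4.50, 4.52 and 3.81 CPM (5.47 ± 0.582 TPM). The endothelin receptors Ednra and Ednrb, of which the first mediates constriction, had 2 counts each. Adra1a, an adrenergic receptor, had none.

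Of 30 cytokine receptors 25 were detected, led by Il6st, the shared gp130 chain (250.5 ± 15.4 TPM), the interferon gamma receptor Ifngr1 (159.9, 158, 145 and 149 CPM, 188 ± 10.6 TPM), Tnfrsf1b (123 ± 3.94 TPM), Tnfrsf12a (112 ± 9.67 TPM) and Tnfrsf1a (93.5 ± 6.95 TPM). Tlr4, the lipopolysaccharide receptor, stood at 126, 139, 117 and 118 CPM (78.6 ± 7.41 TPM). RNA for receptors of both agents given to the macrophages of the other groups was thus detected. Of 14 lipoprotein and scavenger receptors 11 were detected: Scarb2 (519 ± 40.4 TPM), Scara3 (271 ± 7.17 TPM), Lrp1 (123 ± 15.7 TPM), Vldlr (98.6 ± 8.99 TPM) and Cd47, which restrains uptake by phagocytes (52.5 ± 12.6 TPM), were highest. Cd47 stood at 64.0, 93.0, 116 and 104 CPM, lowest in replicate 1. Of 25 nuclear receptors 23 were detected. The highest were the glucocorticoid receptor Nr3c1 (123 ± 8.12 TPM), Thra (91.0 ± 0.859 TPM), Nr1d2 (86.3 ± 4.83 TPM), Rarg (84.5 ± 4.72 TPM) and Rxra (55.1 ± 2.59 TPM). For Thra the small SD holds for TPM only, since its CPM was 126 in replicate 4 against 118 to 119 in the others.

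Hox genes, which lie in 4 clusters and are switched on in order along the body axis, showed a bounded pattern. Of 39, 18 (46.2%) were detected, against 53.2% of all nuclear coding genes. The summed level of the Hox genes was 253, 249, 245 and 266 CPM. Cluster A on chromosome 6 held 59.9% of the Hox TPM with 8 of 11 genes, and cluster B (chromosome 11, 96194316 to 96368256) 37.3% with 8 of 10. Cluster C (chromosome 15, 102921103 to 103036852) held 2.87% with 2 of 9, Hoxc4 (2.05 CPM) and Hoxc6 (3.84 CPM). Cluster D (chromosome 2, 74668310 to 74765142) had 4 counts in all libraries together over its 9 genes, 3 of Hoxd9 and 1 of Hoxd8.

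Along the clusters the level peaked in paralogue group 7, which held 38.1% of the Hox TPM, followed by group 5 with 22.3% and group 6 with 14.5%. Hoxa7 stood at 77.6, 75.4, 78.4 and 79.9 CPM (94.5 ± 2.09 TPM) and Hoxa5 at 40.0, 41.1, 37.1 and 38.3 CPM (72.8 ± 4.01 TPM), with little spread between libraries in either. Hoxb7 (43.3 ± 4.31 TPM), Hoxb6 (32.7 ± 1.39 TPM) and Hoxb3 (21.2 ± 1.96 TPM) came next. Other detected members were Hoxa2 (14.6 TPM), Hoxa6 (14.1 TPM), Hoxb4 (11.9 TPM), Hoxb2 (9.43 TPM), Hoxb5 (6.40 TPM), Hoxb8 (6.21 TPM), Hoxa3 (5.85 TPM), Hoxa9, Hoxb9 and Hoxa10. In CPM the last 3 stood at 6.51, 2.66 and 1.82. Groups 11 and 12 had no count in any cluster. Group 13 had 33 counts, 30 of them from Hoxc13. In group 4, Hoxa4 missed the threshold in replicate 3 alone, at 0.997 CPM. The cofactors of Hox proteins were all detected, 9 of 9, among them Meis2 (122 ± 4.42 CPM, 35.3 TPM), Pbx2 (27.7 TPM), Meis3 (21.4 TPM) and Pknox1 (9.68 TPM).

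**Figure D4:**
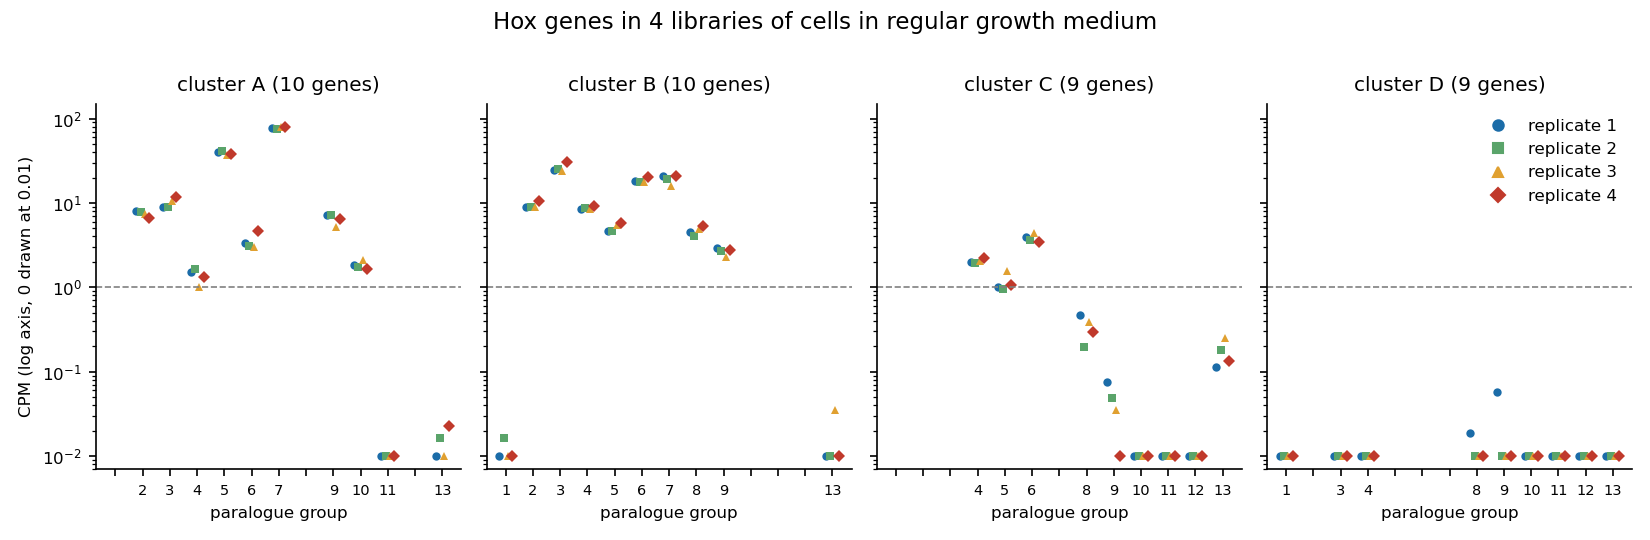
CPM (log axis) of Hox genes by paralogue group in the 4 clusters, 1 symbol per library, with values of 0 drawn at 0.01 and the detection threshold as a dashed line. Group 7 of cluster A is highest, near 78 CPM, no gene of cluster D reaches the line, and groups 11 to 13 lie below it in every cluster.

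Other positional factors, listed by the embryonic tissues they are known from, were mixed. The shares detected, in the order below, were 31.25%, 25%, 28.6% and 48%, against 53.2% of all nuclear coding genes. These lists do not by themselves give the origin of the cells, which was not tested. Of 16 factors of heart and outflow tract 5 were detected: Gata6 (195 ± 9.48 CPM), Hey2 (135 ± 5.94 CPM), Tbx18 (47.1 ± 1.51 CPM), Mef2c (20.3 ± 1.95 CPM) and Gata4 (5.47 ± 0.401 CPM), while Isl1, Hand1, Hand2, Tbx1, Tbx3, Gata5 and Nkx2-5 had no count. Of 12 neural crest factors 3 were detected: Ets1 (86.2 ± 4.11 CPM), Twist1 (25.6 ± 2.90 CPM) and Snai2 (6.20 ± 0.50 CPM). Sox10 and Pax3 had 1 count each, and Foxd3 none. Of 14 somite factors 4 were detected, among them Foxc1 (71.7 ± 4.50 CPM), Foxc2 (17.2 ± 2.66 CPM) and Pax9 (1.17 ± 0.0503 CPM), while Meox1, Meox2, Pax1 and Tcf15 had no count. Of 25 lateral plate and splanchnic factors 12 were detected. Osr1, a factor of intermediate and lateral mesoderm, stood at 140.5, 138, 146 and 176 CPM (253 ± 23.1 TPM), Tbx15 at 66.8 ± 3.92 CPM, Prrx1 at 146 ± 11.3 CPM, Nr2f2 at 23.3 ± 2.76 CPM and Emx2 at 6.87 ± 0.350 CPM.

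The regulators of smooth muscle genes were nearly all present, 17 of 18. Beside Klf4, the highest were Wwtr1, which is TAZ (192 ± 10.8 TPM), Smad4 (99.0 ± 4.63 TPM), Rbpj, the nuclear effector of Notch (96.5 ± 5.56 TPM), and Smad3 (95.6 ± 5.46 TPM). Srf stood at 20.5, 19.5, 25.3 and 26.5 CPM (27.7 ± 3.91 TPM), above its partner Myocd at 3.72 ± 0.481 TPM, while the related coactivators Mrtfb and Mrtfa stood at 23.1 ± 2.54 and 15.2 ± 2.44 TPM. Tead1, the DNA partner of YAP and TAZ, varied most of the list at 67.7, 109.5, 137 and 118 CPM, with replicate 1 below the rest. Among the other members, Tcf4, Smad2, Kdm3a, Tead3 and Elk1 lay between Yap1 at 199.8 ± 6.07 CPM and Klf5 at 12.0 ± 0.995 CPM.

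Libraries were close for most genes. The common biological coefficient of variation from edgeR was 11.3% over 14716 genes. Among 9317 genes with a mean of at least 10 CPM the median was 8.99%, and 77 exceeded 30%. The coding genes with the smallest coefficients were Nmt2, Acsl5, Plekhb2, Dnajc5, Metap2 and Hnrnpul1, at 6.59 to 6.63%. Coefficients of single genes are drawn by edgeR toward the trend at their level, 7.66 to 7.69% for these genes. The lowest values, and list medians near them, therefore do not give the genes' own spread alone. Nmt2, for example, stood at 133, 133, 135 and 134 CPM after TMM scaling. By list, the medians of members at 10 CPM or more were lowest for tropomyosin and thin filament genes (7.41%) and highest for the 2 such genes of bone and cartilage (17.7%), followed by immediate early genes (14.8%) and intermediate filaments (12.7%).

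The largest differences were in replicate 4. Among the 9317 genes, 170 were at least 1.5-fold above and 10 at least 1.5-fold below the median of the other libraries there, 1.93% of the genes in all. The counts above and below were 10 and 97 in replicate 1, 0 and 20 in replicate 2, and 27 and 3 in replicate 3. Replicate 4 was the highest library in 40 of the 50 genes with the largest spread. Without it the common coefficient of variation fell to 8.42%.

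Several groups of genes carried this difference. They were picked after their values were seen. Of 67 histone genes tied to DNA replication, 38 were detected, and the 67 summed to 438, 378, 352 and 1186 CPM. Their mRNAs are known to end mostly in a stem-loop and not in a poly(A) tail. Hist2h2aa2 (130.4%), Hist1h4h (107%), Hist1h4d (83.4%), Hist1h4c (82.1%) and Hist1h2bg (68.5%) were among the 12 coding genes with the largest coefficients of variation. Such copies are much alike, so single members are uncertain. Rpph1 stood at 778, 789, 981 and 5082 CPM and Rmrp, the RNA of another ribonuclease, at 145, 140.5, 170.4 and 511 CPM. Without replicate 4 the mean of Rpph1 was 849 CPM, and with it 1907 CPM. Both are known as RNAs without a poly(A) tail, and the kit selects polyadenylated RNA. Cell cycle genes summed to 1238 CPM in replicate 4 against 1142 to 1466 CPM in the others. The part of cell division, RNA quality or tail selection in these values was not tested.

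Single members of other groups, also picked for their values, were high in replicate 4. Junb stood at 6.13, 6.59, 7.94 and 26.5 CPM (69.5%) and Jund at 19.8, 20.0, 18.4 and 55.5 CPM, both subunits of the AP-1 factor. Of 11 immediate early genes at 10 CPM or more, 4 were at least 1.5-fold above the others there, and the whole list was at 1.07 times their mean. The inducible heat shock genes Hspa1a and Hspa1b (61.9% and 67.2%), nearly identical copies, summed to 19.2, 19.9, 19.7 and 70.5 CPM. The ribosomal genes Rplp1 and Rpl36 stood at 362, 357, 337 and 703 CPM and at 77.8, 78.4, 71.8 and 177 CPM, whereas all 83 ribosomal protein genes summed to 41006, 38421, 37761 and 40299 CPM. In each of the genes named here replicate 4 alone was high and the other libraries lay close together. The 158 coding genes that were at least 1.5-fold higher there had a median GC content of 59.9% against 48.9% for those within 1.5-fold, and a median transcript length of 2958.5 against 3678 bases. The 2276 shortest coding genes had a median log2 ratio of 0.01 in replicate 4. Across all 9099 coding genes at this level, the 2275 with the highest GC, from 53.8 to 69.4%, had a median log2 ratio to the other libraries of 0.14 in replicate 4, -0.14 in replicate 2, 0.06 in replicate 3 and -0.02 in replicate 1. So GC content moved with more than 1 library, and the part of GC content or length in the differences was not tested.

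Other large spreads came from single genes. Fam177a (155%) stood at 4.22, 3.61, 7.90 and 165 CPM and its neighbour 1700047I17Rik2 at 224, 218, 209.8 and 58.7 CPM. Their sum was 228, 221, 218 and 223 CPM, so the split between the pair and not their total differed in replicate 4. The mitochondrial mt-Co2 (95.9%) was lowest in replicate 1, at 1.91, 17, 37.2 and 23.6 CPM, far below mt-Co1, and it has nuclear copies that may take its reads. Zfp968 (70.7%), a zinc finger gene, stood at 23.6, 5.94, 21.3 and 5.42 CPM, low in replicates 2 and 4. Lars2 (58.3%), the mitochondrial leucyl-tRNA synthetase, stood at 15.3, 14.5, 48.9 and 17.6 CPM, with replicate 3 alone high and a mean of 15.8 CPM without it, against 24.1 CPM with it.

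**Figure D5:**
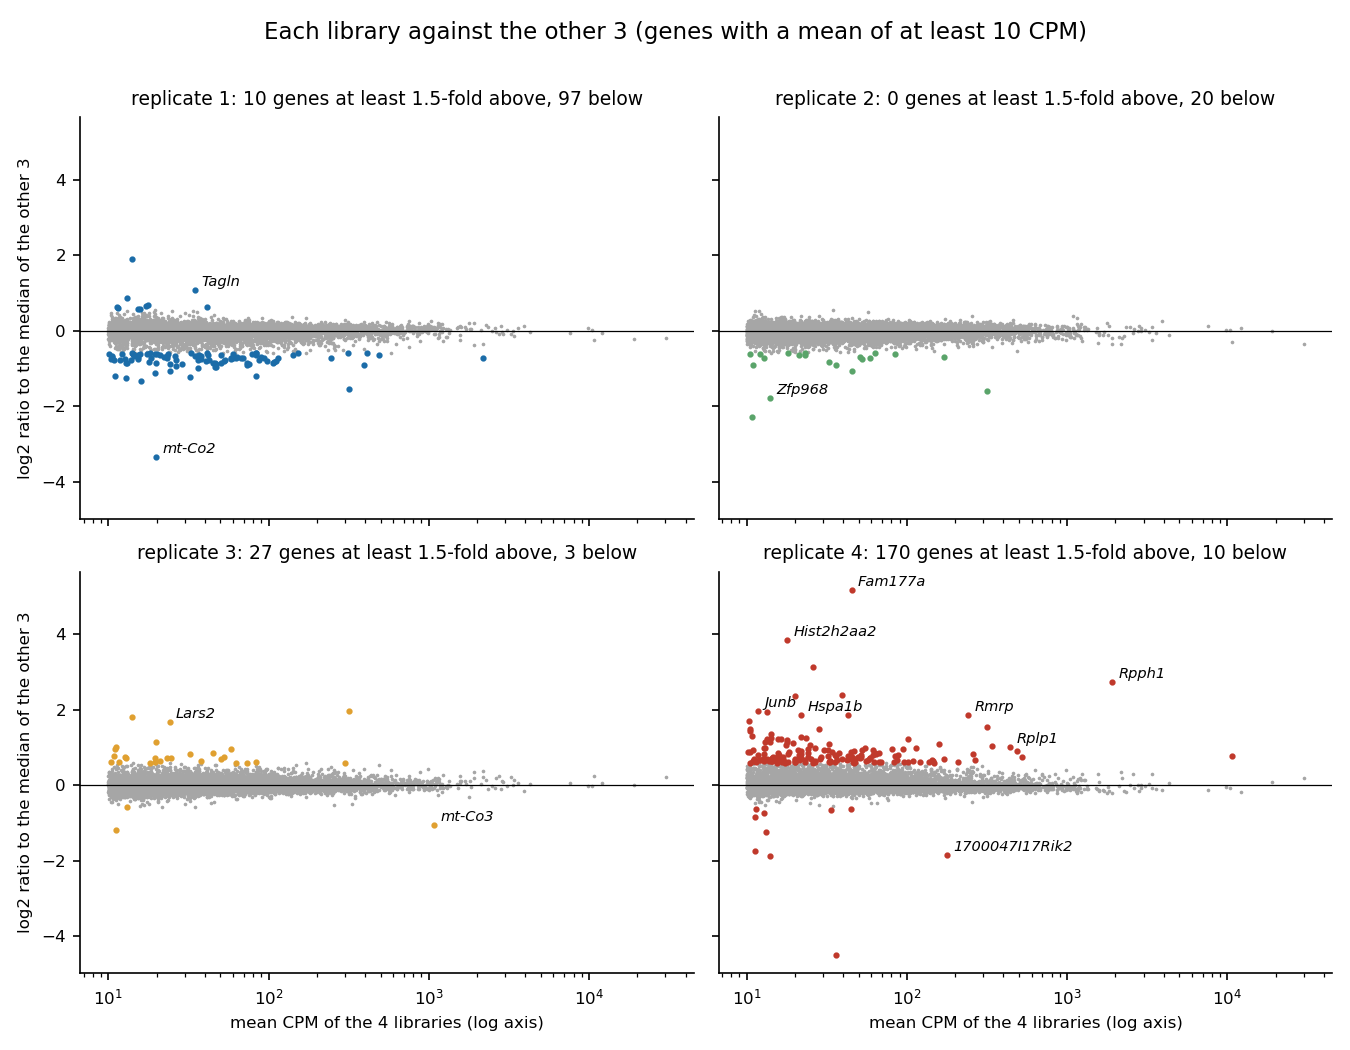
Log2 ratio of each library to the median of the other 3, against mean CPM (log axis), for genes with a mean of at least 10 CPM, with genes at least 1.5-fold away in colour. Replicate 4 has 170 genes above and 10 below, against 10 and 97, 0 and 20, and 27 and 3 in replicates 1 to 3.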

How the data were processed

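The authors deposited estimated counts per gene, made per the submitters' processing notes with Salmon 1.10.1 and the mouse build mm10. Per the labels' protocols, RNA was extracted with a column kit, libraries were made with a stranded mRNA kit that selects poly(A) RNA, and paired reads of 150 bases were planned. Total counts per library were 28097496 to 61493375. The annotation release and how transcripts were summed to genes were not given in the sources used here. All 12 samples share 1 table, of which the 4 regular medium columns were read and 8 others not used.

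CPM was computed from the whole column totals. Names, types and lengths came from GENCODE M21 (GRCm38, the same build as mm10) for 51344 of 55822 identifiers (92.0%). Identifiers without a name held 3.68 to 5.02% of the counts per library and remained in the totals. TPM used the union of a gene's exons. Where a symbol had several identifiers, the one with the highest mean was used. Counts were rounded for edgeR 4.0.16 (R 4.3.3, with TMM, filterByExpr and an intercept only). It gave each gene's biological coefficient of variation, drawn toward the trend over genes, and was tested beforehand on simulated data. There was no contrast and so no test between groups. Near-identical genes may share or split reads, since how such reads were assigned is not stated. All pairs of libraries differed beyond sampling noise (chi-square per degree of freedom 13.0 to 47.1), so none was a repeat deposit. Correlations used log2(CPM + 0.5). CArG matches were searched in RefSeq start-site windows. Python 3.11.15, pandas 2.3.3, numpy 2.4.6, scipy 1.17.1 and matplotlib 3.10.9 were used.

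The genes named were fixed markers, the 20 highest by TPM and 10 by CPM, up to 5 per list by TPM, identity markers at 10 CPM or more in all libraries, detected Hox genes, and the 12 coding genes with the largest and 6 with the smallest coefficient of variation. Some genes that this rule names are not reported here. Other genes were named after their values were seen, most because they were near 0 or stood apart in 1 library. The members and lists were chosen with earlier results of these data known. Alternatives covered TMM and DESeq2 1.42.0 scaling, thresholds, transcript length, unnamed and mitochondrial genes, and leaving out each replicate. The comparison of GC content and length by library, and the histone, Rpph1, heat shock and Fam177a groups, were added after seeing the data.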

Additional observations from a re-analysis of the deposited data

Results flagged for a closer look

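In 38 of 321 genes examined and in 4 of 53 lists, 1 library lay apart from the other 3 by more than Dixon's criterion allows for 4 values. Chance alone gives about 1 in 20 such groups. Replicate 4 was the library apart in 26 of these genes, replicates 1, 2 and 3 in 4 each. The genes had been named partly because of their spread, so this count describes the named genes and not all genes.

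In replicate 4 the genes that stood above the rest, with the range of the other libraries, fell into a few kinds. Some were of kinds known as RNAs without a poly(A) tail, though tails were not measured. They included Rpph1 (5082 against 778 to 981 CPM) and Rmrp (511 against 140.5 to 170.4 CPM). The histones were Hist1h2bg (29.7 against 7.12 to 9.01 CPM), Hist1h4c (50.3 against 9.00 to 11.2 CPM), Hist1h4d (99.6 against 18.4 to 19.6 CPM), Hist1h4h (78.1 against 7.69 to 9.54 CPM) and Hist2h2aa2 (60.3 against 2.95 to 4.47 CPM). Stress and early response genes were Hspa1a (21.9 against 6.34 to 6.66 CPM), Hspa1b (48.6 against 12.5 to 13.4 CPM), Junb (26.5 against 6.13 to 7.94 CPM), Jund (55.5 against 18.4 to 20.0 CPM), Gdf15 (14.3 against 3.24 to 3.63 CPM) and Cdkn2a (23.6 against 9.42 to 10.6 CPM). Coding genes of other roles were Rplp1 (703 against 337 to 362 CPM), Rpl36 (177 against 71.8 to 78.4 CPM), Mif (61.9 against 35.4 to 37.4 CPM), Cavin1 (1177 against 898 to 917 CPM) and Fzd2 (114 against 77.4 to 82.1 CPM). Single genes were Fam177a (165 against 3.61 to 7.90 CPM), Hoxb2 (10.7 against 8.93 to 9.07 CPM), Thra (126 against 118 to 119 CPM) and Tnnt2 (5.36 against 4.73 to 4.80 CPM). Below the rest in replicate 4 were 1700047I17Rik2 (58.7 against 209.8 to 224 CPM), Agtr1a (3.81 against 4.50 to 4.58 CPM), Efemp1 (1122 against 1196 to 1211 CPM) and Ets1 (80.1 against 87.6 to 88.8 CPM). For Tnnt2 and Agtr1a these are levels of a few CPM.

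In replicate 1, values above the rest were found for Clu (427 against 378 to 384 CPM), Mcm6 (103 against 85.8 to 87.1 CPM), Mcm7 (85.9 against 69.1 to 70.2 CPM) and Myl12a (421 against 388 to 393 CPM). In replicate 2, Nr1d2 (143 against 129 to 132 CPM) and Tcf4 (116 against 101 to 102 CPM) were above the rest and Scara3 (272 against 280.1 to 281 CPM) and Tubb3 (10.5 against 12.3 to 12.6 CPM) below. In replicate 3, the library with the lowest depth, Lars2 (48.9 against 14.5 to 17.6 CPM) and Itgb3 (61.4 against 50.9 to 52.7 CPM) were above and Acsl5 (127 against 129 to 129.7 CPM) and Fabp4 (1.53 against 2.33 to 2.48 CPM) below. Summed over lists, intermediate filament genes reached 4163 CPM against 3139 to 3307 CPM and mast cell markers 2.49 CPM against 2.42 to 2.42 CPM, both in replicate 4. Actins were lowest in replicate 2, at 5469 CPM against 5808 to 5876 CPM, and receptor tyrosine kinases highest in replicate 3, at 3218 CPM against 3037 to 3062 CPM. Several of these gaps, such as those of Acsl5, Scara3 and the mast cell markers, are small beside the levels, with the other 3 libraries very close together.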

How the results depend on the processing

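The share of counts in the 50 most abundant genes was 19.1%, and it was 17.1% with mitochondrially encoded genes left out and 15.9% with unnamed identifiers left out. Of the 50 coding genes highest by TPM, 21 were also among the 50 highest by CPM, 44 among the 50 highest with the longest transcript as length, and 48 to 49 when 1 replicate was left out. With the longest transcript, summed TPM moved by more than 1 SD for identity genes (13265 to 13624), cytoskeletal genes (39033 to 41269), receptor genes (8990.05 to 8380.1), positional genes (1360.4 to 1421) and state genes (19138 to 19914), and for 38 of 56 single lists, by ratios of 0.797 to 1.43. The common biological coefficient of variation was 8.42 to 12.2% when 1 replicate was left out. Its lowest value was without replicate 4, against 11.3% in all, and 9.75 to 12.5% under the other filters and scalings. Genes detected numbered 10405 at 5 CPM, 13387 at 0.5 CPM and 12528 to 12557 without 1 replicate. Contractile markers detected numbered 12 under TMM scaling and without 1 replicate, and 13, with Myh11, at 0.5 CPM, a setting added after seeing the data. Hox genes detected numbered 18 to 20. Summed CPM of all 56 lists stayed within 1 SD under TMM scaling. Its factors were 0.986 to 1.01, so these means could hardly move. No paired analysis was possible because the 4 libraries form 1 group with no contrast, so replicate numbers pair nothing. Levels under about 1 CPM rest on few counts, mostly in replicate 3, the shallowest library.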

Other observations

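Genes of cell division were all detected, 31 of 31, and summed to 1466, 1205, 1142 and 1238 CPM, highest in replicate 1. The replication clamp Pcna stood at 119.9, 103, 94.4 and 103 CPM, the proliferation antigen Mki67 at 84.7, 70.0, 68.3 and 73.3 CPM and the topoisomerase Top2a at 174, 136, 115 and 132 CPM. Per length, Pcna led at 153 ± 15.6 TPM, followed by the helicase subunits Mcm6 (67.7 ± 6.54 TPM), Mcm7 (58.3 ± 6.74 TPM) and Mcm4 (54.3 ± 5.20 TPM) and by Top2a (53.9 ± 9.67 TPM). Of 17 cell cycle inhibitors and p53 targets 16 were detected. Ccng1 (781 ± 49.0 TPM), Bax (166 ± 13.4 TPM), Trp53inp1 (142 ± 9.25 TPM), Mdm2 (124 ± 2.58 TPM) and Cdkn1b (109 ± 5.78 TPM) were highest. The inhibitor Cdkn1a stood at 60.5, 62.9, 74.5 and 75.3 CPM, and Cdkn2a, which rises with culture age in many cells, at 10.1, 9.42, 10.6 and 23.6 CPM, with replicate 4 alone high. Gdf15, a stress-induced cytokine, stood at 3.24, 3.25, 3.63 and 14.3 CPM and was high in the same library.

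Of 20 immediate early genes 15 were detected, led by Klf6 (272 ± 18.9 TPM), Dusp1 (166 ± 16.8 TPM), Btg2 (79.4 ± 4.14 TPM), Jund (58.9 ± 35.4 TPM) and Ier3 (56.4 ± 3.21 TPM). The Jund mean rests on replicate 4, at 55.5 CPM against 18.4 to 20.0 CPM in the others. Fos was low at 1.82 ± 0.136 CPM. Of 23 interferon-induced genes 16 were detected, led by Ifitm3 (321 ± 17.8 TPM), Ifit3 (262 ± 34.2 TPM), Ifit2 (105 ± 10.5 TPM), Irgm1 (88.4 ± 5.45 TPM) and Bst2 (52.0 ± 7.59 TPM), and their summed level was 646, 636, 588 and 567 CPM. Isg15, usually a strong member of this group, was not detected, at 0.992 ± 0.203 CPM. Of 21 glycolysis and hypoxia genes 20 were detected, with Gapdh (780.0 ± 61.8 TPM), Pkm (683 ± 60.3 TPM), Aldoa (615 ± 44.8 TPM), Pgam1 (372 ± 10.5 TPM) and Tpi1 (326 ± 24.5 TPM) on top. All 22 chaperone genes were detected, led by Hspa8, Hsp90ab1 (1953 ± 139 TPM), Calr (963 ± 81.3 TPM), Hsp90b1 (791 ± 42.3 TPM) and Canx (762 ± 48.0 TPM).

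Genes outside the lists also stood high. Ephx1, the microsomal epoxide hydrolase, ranked 30 among nuclear coding genes at 1208, 1112, 1159.5 and 1073 CPM (2041 ± 143 TPM), and Aldh3a1, an aldehyde dehydrogenase best known from cornea and liver, ranked 37 at 1092, 975, 1142 and 1033 CPM (1909 ± 156 TPM). Cavin1, the second coat protein of caveolae, stood at 911, 898, 917 and 1177 CPM, beside Cavin2 at 2469, 2469, 2264 and 2113 CPM. The surface protein Tm4sf1 (2361 ± 202 TPM) ranked 23. The imprinted RNAs H19 and Meg3, abundant in many embryonic cells, were not detected, at 0.319 ± 0.0823 CPM and 0.0248 ± 0.0197 CPM. Y-linked genes Ddx3y (102 ± 8.48 CPM), Eif2s3y (33.8 ± 3.68 CPM), Kdm5d (31.2 ± 2.52 CPM) and Uty (25.9 ± 1.61 CPM) were detected in all 4 libraries, and Xist had 12 counts in all of them together.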
